A study of Homo sapiens with 12 samples.

Results

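The 10 genes described here belong to the ERK feedback circuit and were measured by RNA sequencing in BCPAP, a cell line from a human papillary thyroid carcinoma. They are DUSP1, DUSP4, DUSP5, DUSP6, DUSP10, SPRY1, SPRY2, SPRY4, SPRED1 and SPRED2, taken by gene name from the 58735 genes in the deposited table. All 10 were among the 17277 genes that passed the filter on low counts. ERK is the last kinase of the RAS, RAF and MEK cascade, and active ERK turns on genes whose products switch the cascade off again. The dual-specificity phosphatases (DUSP) remove phosphate from MAP kinases, while Sprouty (SPRY) and SPRED proteins act upstream and restrain the activation of RAS and RAF. Papillary thyroid cancers are known for mutations in this cascade, and BCPAP cells carry an activating mutation in BRAF, so the transcripts of these inhibitors are commonly read as a measure of ERK output in such cells. DUSP10 stands somewhat outside the group's name, since the phosphatase it encodes acts mainly on p38 and JNK.

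The study compared 4 groups of 3 libraries each. These were cells given siRNA against NOX4 and kept at 1% oxygen (siNOX4 hypoxia), cells given scrambled siRNA and kept at 1% oxygen (siControl hypoxia), cells given NOX4 siRNA at 20% oxygen (siNOX4 normoxia) and cells given scrambled siRNA at 20% oxygen (siControl normoxia). All cells were transfected, all came from the same line, and the 3 libraries of a group stand for separate transfections, per the labels. How long the cells stayed at each oxygen level is not stated in the labels. NOX4 encodes an NADPH oxidase that makes hydrogen peroxide, and the study's title asks about its part in adaptation to hypoxia.

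Libraries held 16559386 to 21282835 counts in total, and the feedback genes together took 0.297% to 0.644% of them. NOX4 had 4, 3 and 4 counts in siNOX4 hypoxia and 17, 8 and 13 in siControl hypoxia. At 20% oxygen it had 1, 5 and 3 counts in siNOX4 cells, against 8, 13 and 6 in siControl cells. The siNOX4 libraries were below the siControl libraries at both oxygen levels, with log2 fold changes of −1.70 (SE 0.53) at 1% oxygen and −1.48 (SE 0.57) at 20% oxygen. Neither passed adjustment over all genes (edgeR quasi-likelihood test, adjusted p = 0.9999 and 0.0826). At 1% oxygen no gene at all passed it. Of 7 thyroid markers, PAX8, NKX2-1 and FOXE1 passed the filter on low counts, while the other markers, TG, TSHR and SLC5A5 among them, were at or near 0. KRT19 and CDH1 of the 5 epithelial markers did not pass it either. Summed thyroid markers ran from 592 to 675 CPM (counts scaled to library size) in siNOX4 hypoxia, 622 to 674 CPM in siControl hypoxia, 627 to 713 CPM in siNOX4 normoxia and 703 to 1802 CPM in siControl normoxia. Summed epithelial markers ran from 344 to 431 CPM and from 387 to 409 CPM in the hypoxia groups of siNOX4 and siControl cells, and from 622 to 726 CPM and from 458 to 625 CPM in their normoxia groups. The part of these marker levels in the results was not tested. Markers of other cell types were low, with summed levels of 21.6 to 42.0 CPM for 4 endothelial genes, 8.40 to 28.8 CPM for 7 fibroblast and mural genes, and 0.804 to 7.26 CPM for 4 leukocyte genes over the 12 libraries.

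The siControl normoxia group was not uniform. Its biological coefficient of variation was 31.7%, against 8.58% in siNOX4 hypoxia, 5.33% in siControl hypoxia and 7.07% in siNOX4 normoxia. Replicates 1 and 3 stood together and apart from replicate 2, and the split ran through the feedback genes. DUSP1 in replicates 1 and 3 was at 0.362 and 0.391 of its replicate 2 level, SPRY1 at 0.275 and 0.326, DUSP6 at 0.477 and 0.458, and DUSP5 at 0.607 and 0.552. SPRY2 went the other way, at 1.29 and 1.64 of the replicate 2 level. Replicate 2 lay inside the range of the siNOX4 normoxia libraries for DUSP1, DUSP4, DUSP5, DUSP6, SPRY2 and SPRY4. PAX8, the thyroid transcription factor, showed the same split, at 1735 and 1640 CPM in replicates 1 and 3 and 533 CPM in replicate 2, and so did the endothelial marker PECAM1, at 30.6 and 22.2 CPM against 2.66 CPM. What separates these libraries was not tested. The main results of the 10 genes that use the group are given with all libraries and without replicates 1 and 3.

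**Figure D1:**
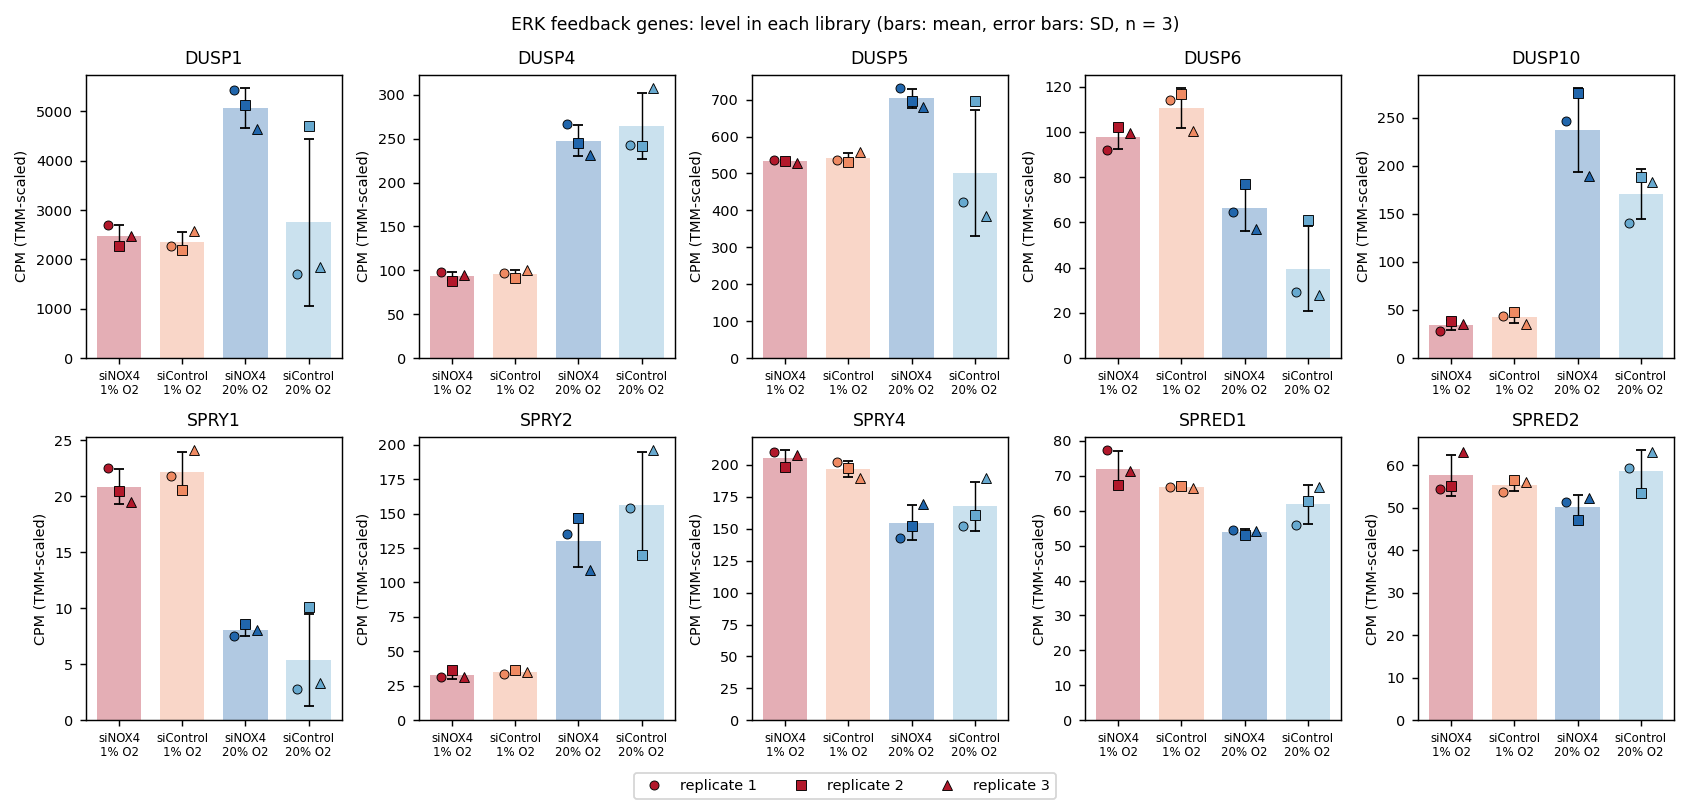
Level of each feedback gene in every library, in CPM on a linear axis with its own scale per gene; bars are means and error bars SD over 3 libraries, and the point shape marks the replicate. DUSP4, DUSP10 and SPRY2 are lower and SPRY1 is higher in both 1% oxygen groups, and the circle and triangle of the siControl 20% oxygen group sit well below its square for DUSP1, DUSP5, DUSP6 and SPRY1.

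The promoter windows of DUSP1, SPRY1 and SPRY2 are shown because DUSP1 and SPRY1 carried the split most strongly, SPRY2 had a strong oxygen response in the results that follow, and these windows hold no exon bases. RefSeq (GRCh38.p14) gave promoter sequence for 8 of the 10 genes, and DUSP4 and DUSP5 had no entry. Each window is the 250 bases before a transcription start, 5′ to 3′ on the gene's strand: chr5:172771196-172771445 on the minus strand for DUSP1, chr4:123396545-123396794 on the plus strand for SPRY1, and chr13:80341127-80341376 on the minus strand for SPRY2. Capitals mark matches on either strand to the letters searched.
DUSP1: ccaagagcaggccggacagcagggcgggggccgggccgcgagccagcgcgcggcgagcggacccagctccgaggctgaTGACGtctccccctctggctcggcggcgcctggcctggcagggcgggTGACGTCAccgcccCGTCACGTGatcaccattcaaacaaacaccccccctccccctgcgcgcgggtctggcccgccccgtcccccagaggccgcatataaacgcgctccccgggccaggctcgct
SPRY1: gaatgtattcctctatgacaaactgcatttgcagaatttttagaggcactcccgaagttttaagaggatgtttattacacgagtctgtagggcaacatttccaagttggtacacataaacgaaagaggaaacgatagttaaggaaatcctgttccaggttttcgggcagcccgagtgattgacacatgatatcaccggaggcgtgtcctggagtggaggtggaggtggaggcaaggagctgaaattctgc
SPRY2: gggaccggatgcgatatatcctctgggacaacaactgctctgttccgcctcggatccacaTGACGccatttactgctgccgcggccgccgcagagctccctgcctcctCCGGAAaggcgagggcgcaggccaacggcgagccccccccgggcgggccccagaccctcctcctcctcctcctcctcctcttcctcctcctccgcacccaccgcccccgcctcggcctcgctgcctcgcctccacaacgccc
The cyclic AMP response element was searched as TGACGTCA and its core, contained in it, as TGACG. AP-1 was searched as TGANTCA and the ETS core as CCGGAA. The core of hypoxia response elements was searched as ACGTG and an E-box, which contains that core, as CACGTG. Bases are counted back from the transcription start. The DUSP1 window held the full response element at base −125, further cores outside it at bases −172 and −111, and the E-box with its hypoxia core at −108. The full response element occurred in 1.65% of 35116 RefSeq windows of this length, its core in 21.2%, the hypoxia core in 18.5% and the E-box in 6.34%. The SPRY2 window held the response element core at −190 and the ETS core at −142, and the ETS core occurred in 14.5% of windows. None of the letters searched was in this SPRY1 window or in the other SPRY2 windows. The other SPRY1 window, made up of exon bases, held the ETS core at −67. The AP-1 letters, found in 6.57% of all windows, were in none of the 13 windows of these genes. A match of letters is a description of the sequence and not evidence of a bound site.

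Among themselves the feedback genes spanned a wide range of expression. On the authors' length-normalised scale (FPKM), DUSP1 averaged 1551 FPKM over the 12 libraries and was the 10th most abundant of the 17277 genes. DUSP5 followed at 215.5 FPKM, rank 139. The remaining genes lay far lower, and SPRY1 was lowest at 3.51 FPKM, rank 8046. DUSP1 was highest, DUSP5 next and SPRY1 lowest in all 4 groups.

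The order between them shifted with oxygen. In siNOX4 hypoxia SPRY4 (30.8 FPKM) and DUSP6 (20.8 FPKM) came after DUSP1 and DUSP5, followed by DUSP4, DUSP10, SPRED2 and SPRY2 between 10.7 and 12.7 FPKM, whose neighbours in the order overlapped between libraries. In siControl hypoxia SPRY4 (29.6 FPKM) and DUSP6 (23.5 FPKM) again came next after DUSP1 and DUSP5. In siNOX4 normoxia the place after DUSP5 went to DUSP10 (81.0 FPKM), ahead of SPRY2 (42.7 FPKM) and DUSP4 (34.02 FPKM), the last pair overlapping. DUSP10 (57.7 FPKM), SPRY2 (50.8 FPKM) and DUSP4 (35.9 FPKM) also came next in siControl normoxia, where each overlapped its neighbour.

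In siNOX4 cells hypoxia lowered DUSP10, SPRY2, DUSP4 and DUSP1 and raised SPRY1, SPRED1 and SPRY4. In all, 7 of the 10 were called at an adjusted p under 0.05, 3 up and 4 down, while 56.6% of all 17277 genes were called in this comparison, 28.8% higher and 27.8% lower. The libraries of siNOX4 hypoxia did not overlap those of siNOX4 normoxia for any of the 10 genes, 5 being higher and 5 lower, against 71.3% of all genes, 36.4% higher and 34.9% lower. The median log2 fold change of the 10 was −0.10, beside 0.03 over all genes. The siControl normoxia group is not in this comparison but enters the shared spread, and calls were made for all 10 genes without its replicate 2 (67.5% of all genes called) or without its replicates 1 and 3 (67% of all genes). They were made for 9 of the 10 without replicate 1 alone (56.9% of all genes) or replicate 3 alone (57.9% of all genes). In the main fit the count of calls stands near the background, while the count without overlap and the counts in these other fits lie above it. These differences were not tested, and what follows is a description of single genes. In bulk RNA, fewer cells with a transcript and less of it in each cell cannot be told apart.

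In siControl cells hypoxia lowered SPRY2, DUSP10 and DUSP4 and raised SPRY1 and DUSP6. That makes 5 calls among the 10, 2 up and 3 down, against 53.3% of all genes called, 25.7% higher and 27.6% lower. For 6 of the 10 the libraries of siControl hypoxia and siControl normoxia did not overlap, 3 up and 3 down, against 56.9% of all genes, 29.2% higher and 27.7% lower, and the median log2 fold change was 0.01 beside −0.01. Without siControl normoxia replicate 2, 8 of the 10 were called, beside 63.3% of all genes. In the fit without replicates 1 and 3 the lone siControl normoxia library takes its spread from the other groups. For siControl cells only the sizes of the values are therefore given from that fit. No library is shared between the siNOX4 and the siControl comparison, and 4 genes were called in the same direction in both, SPRY1 higher and DUSP4, DUSP10 and SPRY2 lower. Of all genes, 19.3% were called higher in both and 19.9% lower in both.

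**Figure D2:**
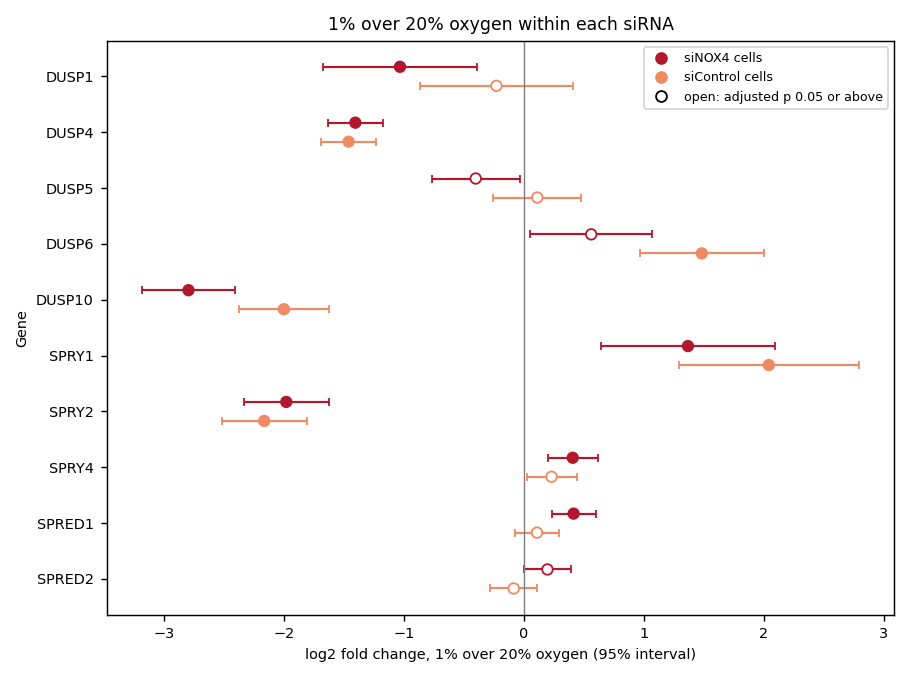
Log2 fold change of 1% over 20% oxygen for each gene with its 95% interval, in siNOX4 cells and siControl cells; filled points had an adjusted p under 0.05. DUSP10, SPRY2 and DUSP4 lie left of −1.3 and SPRY1 right of 1.3 in both, and DUSP1 is at −1.03 in siNOX4 cells and −0.23 in siControl cells.

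DUSP1 (chr5:172768090-172771195, minus strand, GRCh38 as for all genes here) encodes a nuclear phosphatase made within minutes of a stimulus, with p38 and JNK among its main substrates and ERK as another. Its level was 2703, 2268 and 2468 CPM in siNOX4 hypoxia and 5438, 5131 and 4644 CPM in siNOX4 normoxia. In siControl cells it was 2278, 2189.7 and 2575 CPM in hypoxia and 1702, 4707 and 1838 CPM in normoxia. The hypoxia libraries of both siRNAs lay close together, whereas in siControl normoxia a single library, replicate 2, was at the level of the siNOX4 normoxia cells and the others were below every hypoxia library. The log2 fold change of hypoxia was −1.03 (SE 0.30, adjusted p = 0.0103, edgeR) in siNOX4 cells and −0.23 (SE 0.29, adjusted p = 0.537) in siControl cells. In siControl cells the direction rested on the split, being −1.0 without replicates 1 and 3 and 0.42 (adjusted p = 4.0e-04) without replicate 2.

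DUSP4 (chromosome 8, minus strand) and DUSP5 (chr10:110497838-110511544, plus strand) encode the other inducible nuclear phosphatases of the set, the second of them specific for ERK. DUSP4 was at 97.7, 88.4 and 94.8 CPM in siNOX4 hypoxia and 266, 245 and 232 CPM in siNOX4 normoxia. In siControl cells it was at 97.2, 90.9 and 99.8 CPM in hypoxia and 243, 242 and 308 CPM in normoxia. Every hypoxia library was thus below every normoxia library, and DUSP4 did not share the split of the siControl normoxia group. It fell by 1.40 on the log2 scale in siNOX4 cells (SE 0.11, adjusted p = 8.2e-07) and by 1.46 in siControl cells (SE 0.11, adjusted p = 6.1e-07, edgeR), where the value was −1.33 without siControl normoxia replicates 1 and 3. DUSP5 was at 536, 535 and 528 CPM in siNOX4 hypoxia, 538, 531 and 558 CPM in siControl hypoxia, 731, 697 and 681 CPM in siNOX4 normoxia, and 423, 697 and 384 CPM in siControl normoxia. Its hypoxia levels were even across both siRNAs and below all siNOX4 normoxia libraries, but inside the siControl normoxia range. The log2 fold change was −0.40 (SE 0.17, adjusted p = 0.0602) in siNOX4 cells and 0.11 (SE 0.17, adjusted p = 0.599) in siControl cells. With replicates 1 and 3 of siControl normoxia left out, the siNOX4 value was −0.40 and the siControl value −0.36. Leaving out replicate 1 alone or replicate 3 alone brought the siNOX4 value past the threshold (adjusted p = 0.0491 and 0.0272). Leaving out replicate 2 turned the siControl value to 0.43 (adjusted p = 1.4e-05).

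DUSP6 (chr12:89347232-89353271, minus strand) encodes a cytoplasmic phosphatase specific for ERK and is among the transcripts most often used to gauge ERK output. It was at 92.0, 102 and 99.3 CPM in siNOX4 hypoxia and 64.4, 77.1 and 57.2 CPM in siNOX4 normoxia. In siControl cells it was at 114, 117 and 100.4 CPM in hypoxia and 29.2, 61.2 and 28.0 CPM in normoxia. All hypoxia libraries were above all normoxia libraries, with siControl normoxia replicates 1 and 3 the lowest. It rose by 1.48 on the log2 scale in siControl cells (SE 0.24, adjusted p = 2.5e-04) and had a log2 fold change of 0.56 in siNOX4 cells (SE 0.23, adjusted p = 0.0562, edgeR). With replicates 1 and 3 of siControl normoxia left out, it was 0.85 in siControl cells and 0.56 in siNOX4 cells. In siNOX4 cells it was called without replicate 1 alone (adjusted p = 0.0404) or replicate 3 alone (adjusted p = 0.0331). The exons of DUSP6 overlap the antisense gene AC024909.2 over 1875 bases, and without strand their reads cannot be told apart, though that gene had 1 to 17 counts.

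DUSP10 (chr1:221701424-221742176, minus strand), whose product acts on p38 and JNK, showed the largest log2 fold change of the set in siNOX4 cells. It was at 28.5, 38.3 and 35.5 CPM in siNOX4 hypoxia and 246, 275 and 189 CPM in siNOX4 normoxia. In siControl cells it was at 43.5, 48.4 and 35.9 CPM in hypoxia and 140 CPM, 188 CPM and 183 CPM in normoxia. No hypoxia library came near a normoxia library with either siRNA. DUSP10 fell by 2.795 on the log2 scale in siNOX4 cells (SE 0.18, adjusted p = 2.7e-07) and by 2.0 in siControl cells (SE 0.17, adjusted p = 2.1e-06, edgeR). Without siControl normoxia replicates 1 and 3 the siControl value was −2.14.

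The Sprouty genes did not move as a family. SPRY2 (chr13:80335976-80340951, minus strand), an inhibitor of receptor tyrosine kinase signalling, was at 31.5, 36.4 and 31.2 CPM in siNOX4 hypoxia and 135, 146 and 109 CPM in siNOX4 normoxia. In siControl cells it was at 33.4, 36.4 and 34.96 CPM in hypoxia and 154, 119.6 and 196 CPM in normoxia. Every hypoxia library was far below every normoxia library. SPRY2 fell by 1.98 on the log2 scale in siNOX4 cells (SE 0.16, adjusted p = 1.6e-06) and by 2.16 in siControl cells (SE 0.16, adjusted p = 8.0e-07, edgeR). The siControl value was −1.78 when replicates 1 and 3 of siControl normoxia were left out.

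SPRY1 (chr4:123396795-123403760, plus strand), its paralogue with a related inhibitory role, went the opposite way from a low level. It was at 22.5, 20.5 and 19.5 CPM in siNOX4 hypoxia, 21.8, 20.6 and 24.1 CPM in siControl hypoxia, 7.50, 8.59 and 8.10 CPM in siNOX4 normoxia, and 2.78, 10.1 and 3.29 CPM in siControl normoxia. The 6 hypoxia libraries were all above the 6 normoxia libraries. SPRY1 rose by 1.37 on the log2 scale in siNOX4 cells (SE 0.33, adjusted p = 0.00394) and by 2.04 in siControl cells (SE 0.35, adjusted p = 3.5e-04, edgeR). With replicates 1 and 3 of siControl normoxia left out, the siControl value was 1.14.

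SPRY4 (chr5:142310427-142326455, minus strand), which also inhibits signalling from receptors to the cascade, was at 209.9, 198 and 208 CPM in siNOX4 hypoxia, 203, 198 and 189.8 CPM in siControl hypoxia, 142, 152 and 169.7 CPM in siNOX4 normoxia, and 152, 161 and 189 CPM in siControl normoxia. The hypoxia libraries were higher with each siRNA, without overlap. In siControl cells the nearest libraries almost met, at 189.8 CPM in hypoxia and 189.5 CPM in normoxia. SPRY4 rose by 0.41 on the log2 scale in siNOX4 cells (SE 0.10, adjusted p = 0.00321), and its log2 fold change in siControl cells was 0.23 (SE 0.10, adjusted p = 0.0585, edgeR). The siControl value was 0.29 when replicates 1 and 3 of siControl normoxia were left out. It passed the threshold without replicate 3 alone (0.33, adjusted p = 0.0112) and without replicate 2 alone (0.21, adjusted p = 0.0375).

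SPRED1 (chr15:38252326-38357249, plus strand) and SPRED2 (chr2:65310851-65432637, minus strand), whose products bring the RAS-inactivating protein neurofibromin to the membrane, showed small differences. SPRED1 was at 77.3, 67.3 and 71.2 CPM in siNOX4 hypoxia, 66.7, 67.03 and 66.4 CPM in siControl hypoxia, 54.5, 53.1 and 54.3 CPM in siNOX4 normoxia, and 55.9, 62.7 and 66.8 CPM in siControl normoxia. It rose by 0.42 on the log2 scale in siNOX4 cells (SE 0.08, adjusted p = 0.00123, edgeR), and its value in siControl cells was 0.11 (SE 0.08, adjusted p = 0.289), or 0.09 without siControl normoxia replicates 1 and 3. SPRED2 was at 54.5, 55.2 and 63.0 CPM in siNOX4 hypoxia, 53.7, 56.4 and 55.9 CPM in siControl hypoxia, 51.4, 47.0 and 52.2 CPM in siNOX4 normoxia, and 59.2, 53.5 and 63.2 CPM in siControl normoxia. Its 12 libraries lay between 47.0 and 63.2 CPM, and its log2 fold changes were 0.20 (SE 0.09, adjusted p = 0.0821) in siNOX4 cells and −0.08 (SE 0.09, adjusted p = 0.460) in siControl cells. With replicates 1 and 3 of siControl normoxia left out, SPRED2 was at 0.20 in siNOX4 cells and 0.05 in siControl cells, the second with a changed sign.

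In the authors' deposited table, whose oxygen columns run as normoxia over hypoxia, the same 5 genes were called in siControl cells, beside 24.4% of the 30743 genes with an adjusted p there. For siNOX4 cells the authors' deposited table called 9 of the 10 genes, the exception being SPRED2 with an adjusted p of 0.104, beside 35.6% of 30263 genes. The direction was the same for 10 of 10 genes in both comparisons. The 2 genes called there and not here were DUSP5 (authors' deposited table, adjusted p = 4.45e-11) and DUSP6 (authors' deposited table, adjusted p = 3.43e-07).

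At 1% oxygen the feedback genes did not separate by siRNA. None of the 10 was called in siNOX4 hypoxia against siControl hypoxia, and 0% of all genes were called by edgeR, with 448 of all genes and 0 of the 10 at an unadjusted p under 0.05. DESeq2 called 4 genes, none of them in the set. DUSP1 averaged 2480 ± 218 CPM in siNOX4 hypoxia and 2348 ± 202 CPM in siControl hypoxia (SD, n = 3 each), and DUSP5 averaged 533 ± 4.50 CPM in siNOX4 hypoxia and 542 ± 14.3 CPM in siControl hypoxia. The libraries of the groups overlapped for 9 of the 10 genes, the exception being SPRED1, which was higher in siNOX4 hypoxia, while 16.6% of all genes did not overlap, 7.87% higher and 8.7% lower. The intervals of the difference bound what could have been missed: the 95% interval of the log2 fold change was −0.26 to 0.19 for DUSP4, −0.39 to 0.34 for DUSP5, −0.56 to 0.72 for DUSP1, −0.68 to 0.33 for DUSP6 and −0.69 to 0.05 for DUSP10. It was widest for SPRY1, at −0.78 to 0.60. The intervals were −0.43 to 0.27 for SPRY2, −0.15 to 0.27 for SPRY4, −0.07 to 0.29 for SPRED1 and −0.14 to 0.25 for SPRED2.

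At 20% oxygen DUSP1, DUSP5, DUSP6, DUSP10 and SPRY1 had higher means in siNOX4 cells than in siControl cells, but no gene of the set passed the test. Of all genes, 15% were called in this comparison, 3.97% higher and 11% lower. DUSP1 averaged 5071 ± 401 CPM in siNOX4 normoxia and 2749 ± 1697 CPM in siControl normoxia (SD, n = 3 each), a log2 fold change of 0.88 (SE 0.30, adjusted p = 0.0586, edgeR). The values were 0.75 for DUSP6 (SE 0.24, adjusted p = 0.0513), 0.49 for DUSP5 (SE 0.17, adjusted p = 0.0647) and 0.47 for DUSP10 (SE 0.16, adjusted p = 0.0641). SPRY1 was at 0.59 with a larger error (SE 0.35, adjusted p = 0.234). SPRED1 (−0.20, adjusted p = 0.111) and SPRED2 (−0.22, adjusted p = 0.0955) had lower means in siNOX4 normoxia, and so did SPRY2 (−0.27, adjusted p = 0.223), SPRY4 (−0.11, adjusted p = 0.395) and DUSP4 (−0.09, adjusted p = 0.525). Of the 10 genes, 6 had an unadjusted p under 0.05, as did 6643 of all genes, and DESeq2 called 4, DUSP1, DUSP5, DUSP6 and DUSP10, beside 24.1% of all genes. Libraries did not overlap for DUSP10, which was higher, and SPRED1 and SPRED2, which were lower, against 22.4% of all genes, 11.1% higher and 11.2% lower.

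These differences depended on which siControl normoxia libraries were used. Without replicates 1 and 3 the log2 fold changes of siNOX4 over siControl were 0.11 for DUSP1, 0.01 for DUSP5, 0.11 for DUSP6 and 0.33 for DUSP10. SPRY1 (−0.32), SPRY2 (0.12) and DUSP4 (0.035) changed sign, and SPRED2 was at −0.09, SPRED1 at −0.22 and SPRY4 at −0.05. With a lone siControl normoxia library left, only the sizes of these values are given. Without replicate 2 instead, 7 of the 10 were called beside 54.9% of all genes, DUSP1 at 1.53, SPRY1 at 1.42, DUSP6 at 1.22, DUSP5 at 0.81, DUSP10 at 0.56, SPRED2 at −0.28 and SPRY2 at −0.42. The authors' deposited table called none of the 10 in either siRNA comparison. Few genes were called there at all, 2.37% of 29849 genes with an adjusted p in normoxia and 0.149% of 30230 in hypoxia.

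**Figure D3:**
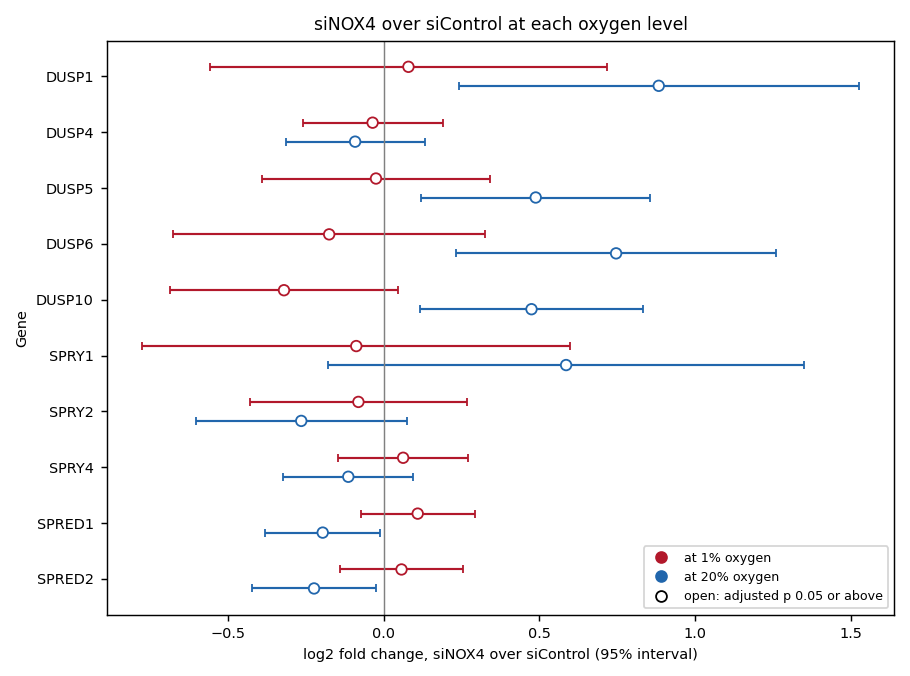
Log2 fold change of siNOX4 over siControl for each gene with its 95% interval, at 1% and at 20% oxygen; every point is open because none had an adjusted p under 0.05. At 1% oxygen all 10 intervals include 0, and at 20% oxygen the values run up to 0.88 for DUSP1.

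The difference between the oxygen responses of siNOX4 and siControl cells was tested directly as an interaction. No gene of the set was called, and 0% of all genes were called by edgeR, with 4 of the 10 and 3609 of all genes at an unadjusted p under 0.05. The interaction was −0.92 for DUSP6 (SE 0.33, adjusted p = 0.204), −0.80 for DUSP10 (SE 0.24, adjusted p = 0.204), 0.31 for SPRED1 (adjusted p = 0.209) and 0.28 for SPRED2 (adjusted p = 0.239), all on the log2 scale. DUSP1 had the same size as DUSP10, −0.80, with a larger error (SE 0.42, adjusted p = 0.274, edgeR). A call for DUSP1 in siNOX4 cells and none in siControl cells is therefore not a shown difference between them. DESeq2 called 75 genes and none of the set. Without siControl normoxia replicate 2 the interaction was called for 7 of the 10, among them DUSP1 at −1.45 and SPRY1 at −1.51, and for 42.9% of all genes. Without replicates 1 and 3, which left a lone siControl normoxia library, calls are not given. The interaction was then −0.03 for DUSP1, −0.29 for DUSP6, −0.65 for DUSP10, 0.33 for SPRED1 and 0.15 for SPRED2.

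**Figure D4:**
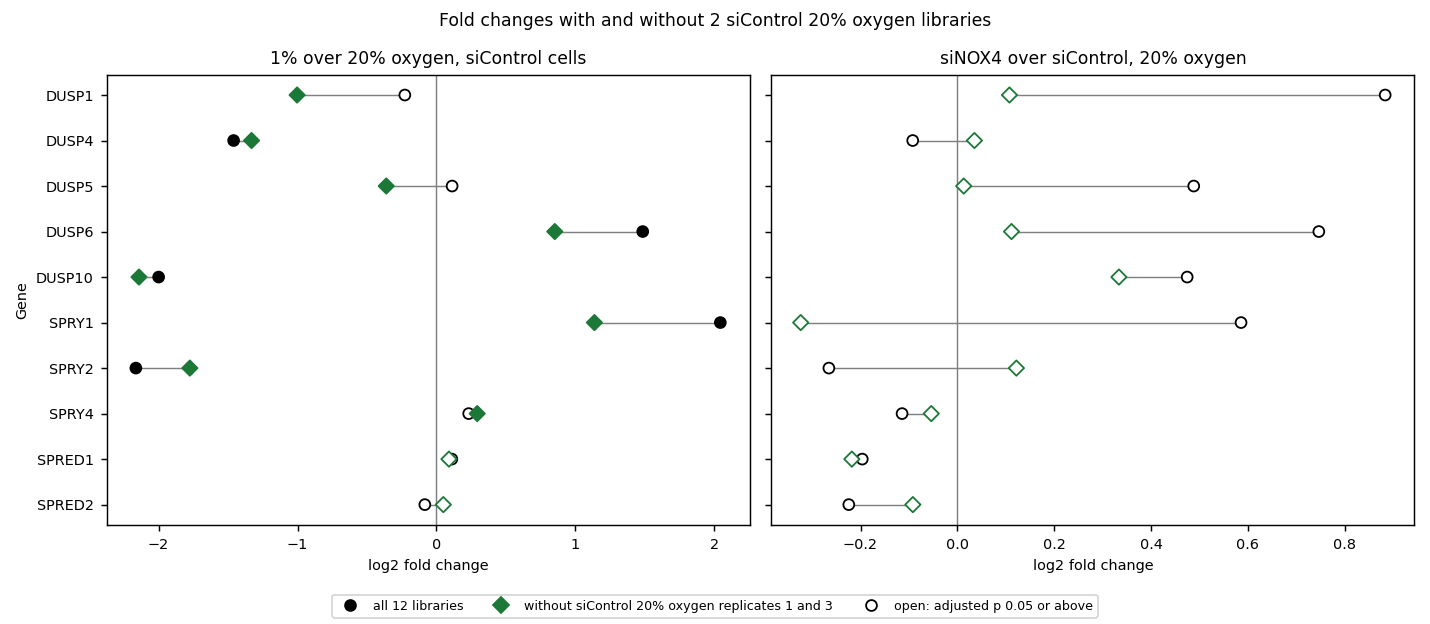
Log2 fold changes with all 12 libraries (circles) and without siControl 20% oxygen replicates 1 and 3 (diamonds), left for hypoxia over normoxia in siControl cells and right for siNOX4 over siControl at 20% oxygen; filled symbols had an adjusted p under 0.05. The diamonds rest on a lone siControl 20% oxygen library, so their fill is not read as a call. Without these libraries DUSP1 is at −1.0 in the left panel, against −0.23 with them, and at 0.11 in the right panel, against 0.88 with them, whereas DUSP4, DUSP10 and SPRY2 stay below −1.3 in the left panel.

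The rest of the pathway was read from lists of genes outside the set, with all changes given as log2 fold changes of hypoxia over normoxia within a siRNA unless stated. The cascade itself, from RAS to ERK, changed by isoform in siNOX4 cells, with 3 of 10 genes higher in hypoxia (HRAS and MAP2K1 among them), 5 lower (among them NRAS, BRAF, MAP2K2 and MAPK3) and 2 not called. The same 8 genes were called in the same directions in siControl cells. HRAS, a RAS isoform, rose by 0.75 in siNOX4 cells (adjusted p = 2.0e-05) and by 0.86 in siControl cells (adjusted p = 8.3e-06). BRAF, the kinase mutated in this line, fell by 0.62 in siNOX4 cells (adjusted p = 2.6e-04) and by 0.65 in siControl cells (adjusted p = 2.0e-04). MAP2K1, which encodes MEK1, rose by 0.60 in siNOX4 cells (adjusted p = 4.1e-04, edgeR) and by 0.88 in siControl cells (adjusted p = 2.7e-05). The list medians were −0.14 in siNOX4 cells and −0.23 in siControl cells.

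Of 12 transcripts known to be induced by ERK, 4 were higher in hypoxia, 4 lower and 4 not called in siNOX4 cells, and 4 were higher, 3 lower and 5 not called in siControl cells. The list was divided in direction, as the feedback genes were, with medians of 0.09 in siNOX4 cells and 0.18 in siControl cells. IER3, an immediate early gene, fell by 2.86 in siNOX4 cells (adjusted p = 9.2e-07) and by 3.49 in siControl cells (adjusted p = 3.0e-07), where the value was −2.77 without siControl normoxia replicates 1 and 3. ERRFI1, an inhibitor of the EGF receptor, rose by 1.15 in siNOX4 cells (adjusted p = 1.8e-05) and 0.95 in siControl cells (adjusted p = 7.8e-05). The ETS factor ETV4 rose by 0.51 in siNOX4 cells (adjusted p = 1.2e-04) and the AP-1 subunit FOSL1 by 0.80 in siControl cells (adjusted p = 1.3e-04). Both were among the 4 genes of this list called higher with each siRNA. CCND1, the cyclin that drives entry into S phase, was not called, at −0.21 in siNOX4 cells and 0.64 in siControl cells (adjusted p = 0.0532), and without siControl normoxia replicates 1 and 3 its siControl value was −0.07.

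Among adaptors and RAS regulators upstream, 4 of 10 were higher, 3 lower and 3 not called in siNOX4 cells, and 3 were higher, 3 lower and 4 not called in siControl cells. The medians were 0.22 in siNOX4 cells and 0.17 in siControl cells. GRB2, the adaptor that links receptors to RAS activation, rose by 0.61 in siNOX4 cells (adjusted p = 3.3e-05) and 0.58 in siControl cells (adjusted p = 5.3e-05). The ubiquitin ligase CBL, which marks receptors for breakdown, fell by 0.68 in siNOX4 cells (adjusted p = 0.00105) and 1.10 in siControl cells (adjusted p = 3.3e-05). LZTR1, which directs RAS proteins to degradation, rose by 1.30 in siNOX4 cells (adjusted p = 9.2e-04), and NF1, the neurofibromin that SPRED proteins recruit, fell by 0.77 in siControl cells (adjusted p = 2.5e-05). The same 3 genes of this list, NF1 and CBL among them, were called lower with each siRNA. SHC1 in siNOX4 cells (0.18) and RASA1 in siControl cells (0.14) were not called.

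The closest relatives of the set gave a mixed picture too. Of 7 other phosphatases and family members, 6 passed the filter, DUSP9 being the exception. In siNOX4 cells 1 was higher and 2 lower in hypoxia, with a list median of −0.21, and in siControl cells 2 were higher and 2 lower, with a median of −0.37. DUSP8, a phosphatase of JNK and p38, fell by 1.64 in siNOX4 cells (adjusted p = 2.4e-05) and by 1.40 in siControl cells (adjusted p = 8.2e-05). SPRED3 rose by 1.44 in siNOX4 cells (adjusted p = 0.00514) but was at −0.10 in siControl cells, where the value was 1.46 without siControl normoxia replicates 1 and 3. DUSP2 fell by 1.51 in siNOX4 cells (adjusted p = 0.0186), a call lost on leaving out siNOX4 hypoxia replicate 1 or 2 or siNOX4 normoxia replicate 1 or 2 (adjusted p between 0.0543 and 0.0751). DUSP16 fell by 1.67 in siControl cells (adjusted p = 3.2e-04), or by 0.69 when replicates 1 and 3 of siControl normoxia were left out. DUSP7, a relative of DUSP6, rose by 0.67 in siControl cells (adjusted p = 0.00473) and was at 0.15 in siNOX4 cells. Its siControl value was 0.21 when replicates 1 and 3 of siControl normoxia were left out.

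At 20% oxygen SPRED3 was at 8.58, 7.26 and 7.56 CPM in siNOX4 normoxia and 30.3, 7.86 and 31.3 CPM in siControl normoxia, and DUSP16 at 20.3, 16.8 and 21.9 CPM in siNOX4 normoxia and 47.6, 21.4 and 57.4 CPM in siControl normoxia. For each, siControl normoxia replicate 2 was near the siNOX4 libraries. SPRED3 fell by 1.57 (adjusted p = 0.0304) and DUSP16 by 1.10 (adjusted p = 0.0317) in siNOX4 normoxia. Among the ERK-induced transcripts PHLDA1 rose by 0.66 (adjusted p = 0.0434) and EPHA2 fell by 0.28 (adjusted p = 0.0411). Without siControl normoxia replicates 1 and 3 the values were −0.011 for SPRED3, −0.12 for DUSP16, 0.15 for PHLDA1 and −0.28 for EPHA2. EPHA2 did not share the split, at 1034, 1041 and 1045 CPM in siControl normoxia, and its value did not move. All 4 calls were close to the threshold and were lost on leaving out single libraries, SPRED3 in 7 of 12 such fits, DUSP16 and EPHA2 in 10 of 12 each, and PHLDA1 in 11 of 12. Such losses were general. Leaving out any library but siControl normoxia replicate 2 cut the calls over all genes from 2593 to between 2 and 1458. In the main fit no other gene of the 5 lists was called between siRNAs at 20% oxygen, and none at 1% oxygen or in the interaction.

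The p38 and JNK cascade, on which DUSP1 and DUSP10 act, had 2 of 10 genes higher, 3 lower and 5 not called in siNOX4 cells, and 1 higher, 2 lower and 7 not called in siControl cells. In siNOX4 cells MAP2K3 fell by 0.42 (adjusted p = 0.00241), MAPK14, which encodes p38 alpha, rose by 0.41 (adjusted p = 0.00554) and MAP2K4 fell by 0.48 (adjusted p = 0.0144), the last call being lost without replicate 2 of siNOX4 hypoxia or of siNOX4 normoxia (adjusted p = 0.0573 and 0.0542). In siControl cells MAP2K4 fell by 0.61 (adjusted p = 0.0041), MAP2K7 fell by 0.46 (adjusted p = 0.00583) and MAPK11 rose by 0.95 (adjusted p = 0.00604). Without siControl normoxia replicates 1 and 3 these 3 values were −0.39, −0.11 and 0.33. MAPK11 was also called higher in siNOX4 cells, at a mean of 8.06 CPM in siNOX4 hypoxia and 4.89 CPM in siNOX4 normoxia. The list medians were −0.04 in siNOX4 cells and −0.18 in siControl cells.

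**Figure D5:**
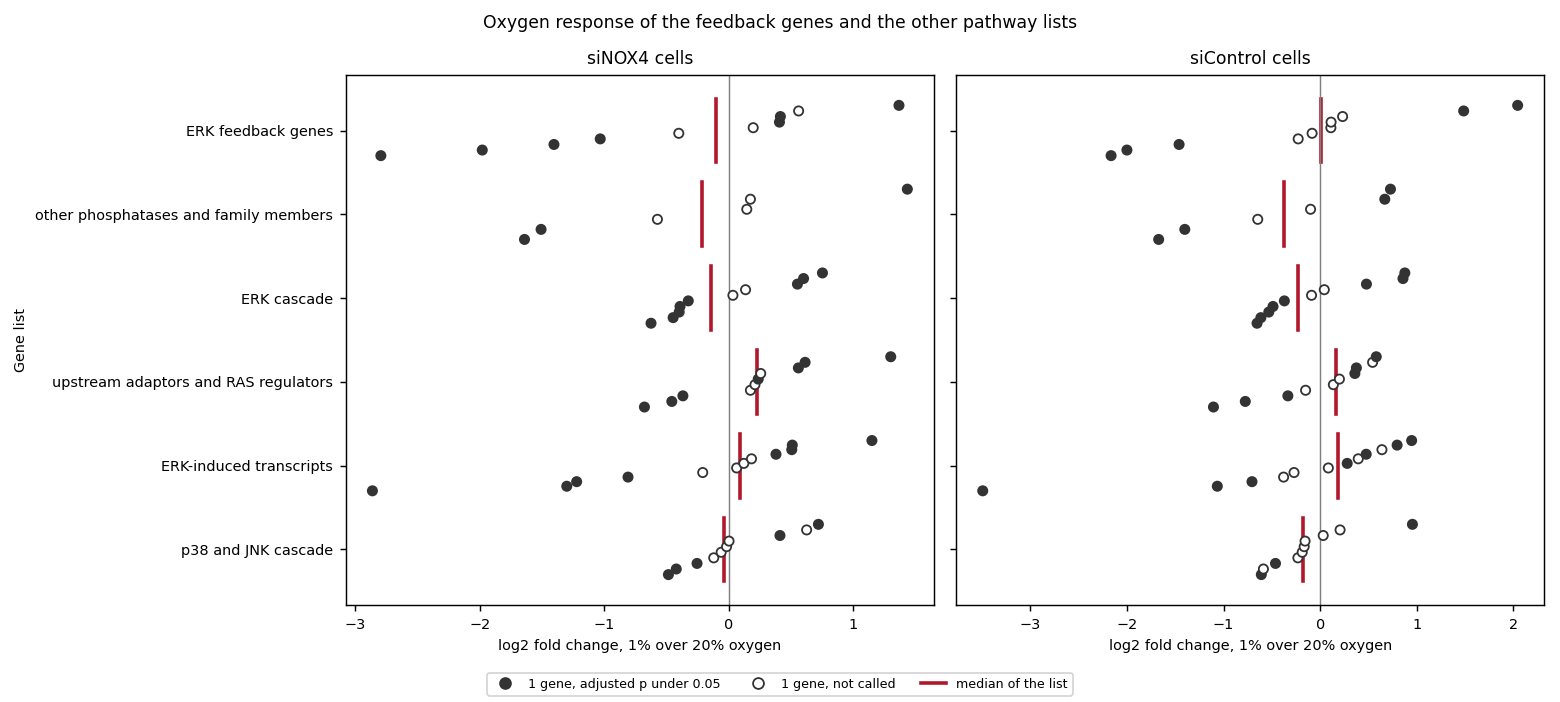
Log2 fold change of 1% over 20% oxygen for the feedback genes and for 5 other pathway lists, in siNOX4 cells and siControl cells; each point is a gene, filled where the adjusted p was under 0.05, and the red line is the list's median. Every list holds genes on both sides of 0 in both panels, and the median of the feedback genes is −0.10 in siNOX4 cells and 0.01 in siControl cells.

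The genes whose centred log2 CPM lay nearest to each member over the 12 libraries were found among 11049 genes, with the root mean square of the difference as the measure. This is a description of 12 points that share their libraries. SPRY2 was nearest to RND3 (0.115, against a spread of its own of 1.05), DUSP4 to ITPRID2 (0.104 against 0.721) and DUSP10 to the mitochondrial ribosomal RNA gene MT-RNR2 (0.176 against 1.23). DUSP1 was nearest to SPARC (0.106 against 0.576), DUSP6 to MCUB (0.115 against 0.676), SPRY1 to NR2F2 (0.177 against 1.03) and DUSP5 to TOX2 (0.0535 against 0.276). SPRY4 with FAT1 (0.0615 against 0.190), SPRED1 with PLXNA3 (0.0711 against 0.167) and SPRED2 with DDX55 (0.0633 against 0.116) varied little in the first place. Members of the set were not among the candidates, so how near they lay to one another was not measured.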

How the data were processed

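Total RNA from 12 BCPAP cultures was sequenced from Illumina TruSeq RNA libraries, per the labels' protocols, a kit taken here as unstranded. The authors deposited 1 table with counts and FPKM per gene and library, and their own log2 fold changes, p-values and adjusted p-values. Bowtie 0.12.2 and the mouse builds mm8 and mm9 are listed in the submitters' processing notes without a role; the sources used here do not name the counting tool or annotation, and the 10 genes' coordinates in the file match a human GRCh38 annotation.

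Linear models per gene were fitted to the counts of all 12 libraries in edgeR 4.0.16 (R 4.3.3), with TMM scaling, edgeR's filter on low counts, a mean for each group and the quasi-likelihood test (8 residual and 4.63 prior degrees of freedom, common biological coefficient of variation 16.38%). P-values were adjusted by Benjamini-Hochberg over 17277 genes and called under 0.05. CPM values are TMM-scaled, and SE is that of the fitted log2 fold change. DESeq2 1.42.0, upper-quartile scaling, no filter, a fit of only the compared groups, the replicate number as a block and leaving out libraries were alternatives. The procedure was tested on simulated counts, where edgeR recovered 191 of 200 genes changed 2-fold, with 15 false calls. The simulated spread was the same in every group, so the uneven siControl normoxia group was not tested by it. The genes, lists and tests were chosen with earlier results of these data known, so they support nothing independently. From each list up to 3 called genes with the smallest p and the uncalled gene with the highest mean CPM are named per comparison. Some genes of the lists are not reported here.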

Additional observations from a re-analysis of the deposited data

How the results depend on the processing

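No call of a feedback gene was lost under any alternative run. Against the main fit, 869 values of the 10 genes kept direction and side of the threshold, 55 newly passed it and 16 changed sign. The 2 hypoxia comparisons were steadier than siNOX4 at 20% oxygen and the interaction. Upper-quartile scaling moved the median of all genes to 0.11 in both. It called 7 genes of the set in siControl cells (53.5% of all genes) and 9 in siNOX4 cells (56.4% of all genes). The number called in hypoxia in siControl cells was 5 to 8 when single libraries were left out. The comparison of siRNAs at 20% oxygen and the interaction depended on the processing, and apart from the left-out libraries the cause was not tested. For siNOX4 at 20% oxygen 2593 of 17277 genes (15%) were called in the main fit and 4696 of 37380 (12.6%) with no filter. DESeq2 called 4163 (24.1%), a fit of only these groups 0, and fits with single libraries left out 2 to 9866. Members called there were 0 in the main fit, 5 with no filter, 4 by DESeq2 and 2 with the replicate block (15.1% of all genes). With single libraries left out they were 0 to 7, the 7 being without siControl normoxia replicate 2 (54.9% of all genes). For siNOX4 at 1% oxygen the main fit called 0 genes, no filter 15, DESeq2 4, only these groups 8, leaving out replicates 1 and 3 27, and leaving out single libraries 0 to 12, with 0 members throughout. For the interaction the main fit called 0 genes, no filter 2107 (5.64% of 37380), DESeq2 75 (0.434%) and leaving out single libraries 0 to 7696. Members called were 4 with no filter and 0 to 7 with single libraries left out. The 7 were without siControl normoxia replicate 2 (42.9% of all genes).

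Signs changed only near 0 or with siControl normoxia libraries. Without replicates 1 and 3, hypoxia in siControl cells gave −0.36 for DUSP5, 0.049 for SPRED2, 1.46 for SPRED3 and −0.066 for CCND1. In the same fit siNOX4 at 20% oxygen gave 0.035 for DUSP4, −0.32 for SPRY1, 0.12 for SPRY2, −0.018 for DUSP7, 0.14 for IER3 and −0.0048 for MAP2K3, and the interaction gave −0.073 for DUSP4, 0.23 for SPRY1 and −0.21 for SPRY2. Upper-quartile scaling gave 0.037 for SPRED2 and 0.033 for SPRED3 in siControl cells. With single libraries left out, hypoxia in siControl cells ranged from −0.48 to 0.42 for DUSP1, −0.048 to 0.43 for DUSP5 and −0.50 to 0.17 for SPRED3. The ranges for siNOX4 were −0.15 to 0.032 for DUSP4 at 20% oxygen, and −0.074 to 0.0071 for DUSP4 and −0.014 to 0.095 for SPRED2 at 1% oxygen. The interaction ranged from −0.069 to 0.11 for DUSP4 and −0.011 to 0.33 for SPRY2.

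Replicate numbers paired the samples weakly at most: deviations of same-numbered libraries correlated at −0.026 to 0.150 over 12 pairs, 2 of them over 0.1, and 12 of 24 samples correlated best with their own number, each counted within a comparison. These were 4 of 6 in each comparison of siRNAs and 2 of 6 in each comparison of oxygen levels. Whether that exceeds random matching was not tested. With the replicate number as a block in edgeR, 8 members were called for hypoxia in siNOX4 cells (9679 genes, 56%) and 5 in siControl cells (9056 genes, 52.4%). For siNOX4 at 20% oxygen 2 members were called (2617 genes, 15.1%). These were DUSP6 at 0.79 (adjusted p = 0.0384) and DUSP10 at 0.47 (adjusted p = 0.0477). For siNOX4 at 1% oxygen and the interaction 0 genes were called. NOX4 had only 1 to 17 counts, and among the feedback genes SPRY1 had the lowest CPM.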
